A study of Mus musculus with 5 samples.

Results

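The genes described here are 10 known transcripts of the choroid plexus, Ttr, Folr1, Clic6, Kl, Calml4, Cldn2, Aqp1, Prr32, Prlr and Slc4a5, measured in a mouse glioma series. They are 10 of 21149 genes named on the array, and 14 of its 55658 probes carry a RefSeq accession that maps to them. Glioma from the MADM model (3 arrays) and normal brain (2 arrays), all at postnatal day 150, had been hybridised as total RNA to 1-colour Agilent mouse arrays. MADM, or mosaic analysis with double markers, is a genetic method that uses recombination between chromosomes to make sparse mutant cells marked by colour. The labels name no mutated gene, Cre driver, strain or dissected brain region for either group. Nor do they say that replicates are separate animals, and the p-values therefore reflect only the spread between these samples, which may be technical. In bulk RNA, fewer cells of a type and less RNA per cell cannot be told apart.

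The choroid plexus is a frond of secretory epithelium in the brain ventricles that makes most of the cerebrospinal fluid. Its cells move sodium, chloride, bicarbonate and water from blood to ventricle, seal the barrier between blood and cerebrospinal fluid with tight junctions, and release carrier proteins such as transthyretin. The tissue is small and its leading transcripts are very abundant.

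Between 61.5% and 70.3% of the 59305 spots other than controls were well above background on an array, and none was saturated. The number of arrays limits the precision. A single slide held all arrays, with gliomas and normal brain in different rows, so that row and group cannot be told apart. All 9 neuron markers were detected on all 5 arrays and were lower in glioma, so that their detection does not set normal brain apart. All 5 oligodendrocyte progenitor markers rose in glioma (median 4.5 on the log2 scale). Among 16891 genes tested, 4651 were lower and 4046 higher in glioma (limma with Benjamini-Hochberg adjustment, adjusted p under 0.05), so that 53.5% of calls were lower. In the authors' unscaled values the median log2 change of all genes moved from -0.04 to 0.31 and 36.3% of calls were lower.

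All 10 choroid plexus genes were lower in glioma, and in each of them every glioma array lay below every normal brain array. By the same test 27.5% of all genes tested were lower, and 38.5% had glioma values wholly below the normal brain values. The log2 changes ran from -3.84 to -13.11 with a median of -6.05, or -5.37 with the genes that no glioma detected set to their bounds, against -0.04 for all genes tested. A fall of at least 4 on the log2 scale was found in 9 of the 10 genes and in 1.00% of all genes tested; with normexp background correction, which adds a constant to every signal and so compresses low values, these were 6 of the 10 and 0.189%, and without glioma 1 they were 10 of the 10 and 1.24%. All 10 passed the filter on dim probes, which asks for a probe well above background on at least 2 arrays, and they met it through normal brain, where both arrays detected each of them.

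**Figure D1:**
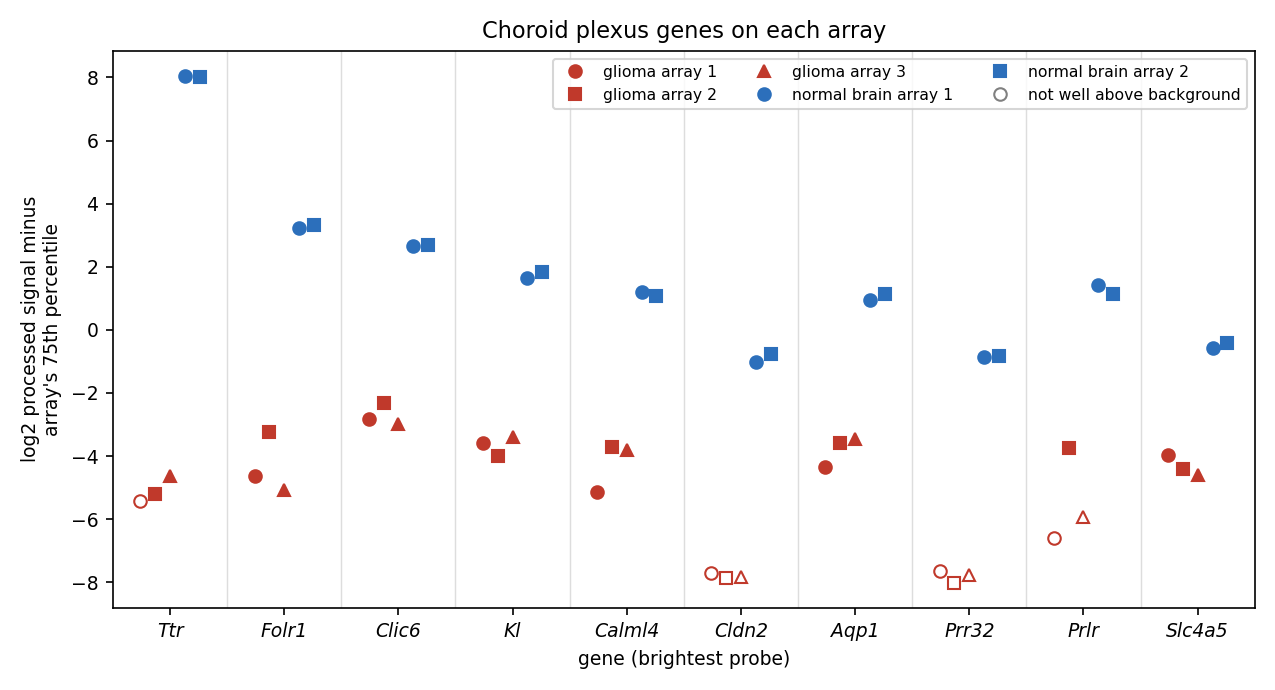
Level of the brightest probe of each choroid plexus gene on each array (y axis, log2 processed signal after subtracting the 75th percentile of the array), for 3 glioma and 2 normal brain arrays, with open symbols for values not well above background. In all 10 genes the glioma symbols lie below the normal brain symbols, and in Cldn2 and Prr32 all 3 glioma symbols are open; levels of different probes are not comparable.

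Since the 10 genes were low together, the 250 bases before their annotated starts were compared. The RefSeq promoter set (GRCm38.p6) holds 9 starts for 7 of the genes, with 3 starts for Prlr. It holds none for Ttr, Folr1 and Clic6, whose promoters were therefore not searched. Shown are Kl, with the most CG dinucleotides of them, Prr32, with none, and Cldn2, with a TATA motif. All are on the plus strand, printed 5′ to 3′, and capitals mark CG dinucleotides and the motif TATAAA.
Kl, chr5:150952357-150952606: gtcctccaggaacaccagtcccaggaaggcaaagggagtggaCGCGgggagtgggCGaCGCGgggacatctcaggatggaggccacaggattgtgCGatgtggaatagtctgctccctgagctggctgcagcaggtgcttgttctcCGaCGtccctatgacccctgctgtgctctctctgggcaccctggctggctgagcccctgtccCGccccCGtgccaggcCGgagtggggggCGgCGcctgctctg
Prr32, chrX:45090654-45090903: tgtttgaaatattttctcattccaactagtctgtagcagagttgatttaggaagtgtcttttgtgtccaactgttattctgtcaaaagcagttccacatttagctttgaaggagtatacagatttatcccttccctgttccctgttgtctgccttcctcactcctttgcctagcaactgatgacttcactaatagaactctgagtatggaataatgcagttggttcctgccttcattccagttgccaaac
Cldn2, chrX:139800558-139800807: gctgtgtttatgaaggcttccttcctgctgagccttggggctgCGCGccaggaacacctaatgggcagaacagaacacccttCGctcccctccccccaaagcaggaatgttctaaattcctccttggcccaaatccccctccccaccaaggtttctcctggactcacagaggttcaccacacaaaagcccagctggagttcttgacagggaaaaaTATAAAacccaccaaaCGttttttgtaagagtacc
The Kl window held 13 CG dinucleotides, that of Cldn2 4 and that of Prr32 0, where the median over 32851 promoters was 6 and the quartiles 2 and 16. The motif TATAAA, read on both strands, lies 35 bases before the start of Cldn2 and, as TTTATA, 127 bases before that of Slc4a5, and 12.4% of all promoters hold it. TAATCC, the core bound by homeodomain factors of the OTX family, was searched on both strands because Otx2 is a choroid plexus regulator. It occurs in none of the 9 windows and in 6.25% of all promoters. TGTTTAC, a core of forkhead factors, also read on both strands, occurs in 1 Prlr window, 215 bases before its start, and in 3.17% of all promoters. No match overlapped another. The windows ranged from free of CG to above the median, with no searched motif common to all of them.

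Transthyretin, encoded by Ttr, carries thyroxine and retinol-binding protein in the cerebrospinal fluid. Its processed signal, the background-corrected brightness before scaling between arrays, was 18.2, 24.7 and 30.5 in gliomas 1 to 3 and 167174 and 166028 in normal brain. The gliomas were at the edge of detection, with the probe well above background in gliomas 2 and 3, while both normal brain arrays were nearly equal. Ttr fell by 13.11 ± 0.27 (SE, n = 3 and 2) on the log2 scale in the limma fit, or 8842-fold (adjusted p = 0.000345). None of the 16891 genes tested had a larger fitted fall. With normexp Ttr fell by 11.27, or 2462-fold.

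Partners of Ttr in thyroid hormone and retinol handling moved less uniformly. Of 12 such genes, 6 were lower and 1 higher (27.5% and 24.0% over all genes tested), with a median of -1.18. The thyroid hormone-binding protein gene Crym (-2.38 ± 0.65), the nuclear receptor gene Thrb (-2.35 ± 0.61) and the thyroxine transporter gene Slco1c1 (-2.19 ± 0.15) fell. Rbp4, the retinol carrier that binds transthyretin, changed by -0.56 ± 0.27 and did not pass (adjusted p = 0.146). Without normal brain array 1 or 2, 3 and 2 genes of the list were lower, and the calls of Crym (adjusted p = 0.126 and 0.118) and Thrb (0.108 and 0.107) were lost. Crym also missed without glioma 1 (0.053) and in the authors' unscaled values (0.058), and Thrb without glioma 2 (0.0633), and the change of Crym was -1.74 without glioma 3; without glioma 1 the list had 4 genes lower.

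The receptors were low as well. Folr1, the folate receptor alpha by which the choroid plexus passes folate into the cerebrospinal fluid, gave signals of 31.6, 95.8 and 22.5 in the gliomas and 5962 and 6391 in normal brain. Glioma 2 was the highest of the 3 and still far below both normal brain arrays. The log2 change was -7.59 ± 0.56, or 192-fold (adjusted p = 0.000661). A dimmer Folr1 probe was detected on both normal brain arrays, at 151 and 174, and in no glioma, which gives a fold of at least 11.5. Such bounds set each array of the undetected group to its lowest signal well above background, or to the probe's own value where that is higher. That lowest signal is not a detection limit for every probe. In glioma 3 it was 10.1, and the dimmer Folr1 probe was undetected at 16.8. A true fold can therefore lie under its bound, and "at least" refers to this rule throughout. With normexp the log2 change was -6.20, or 73.3-fold, and the mean of both probes changed by -5.71.

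Other folate genes did not follow Folr1. Of 9 measured, 5 were higher and none lower in limma (24.0% and 27.5% over all genes tested), with a median of 0.57. At an unadjusted p under 0.05 the lower count was also 0, and without glioma 2 it was 1. Shmt1, which loads single carbons onto folate, rose by 3.06 ± 0.17 (1.91 with normexp and 2.0 with its probes averaged) and Ggh, which trims folate polyglutamates, by 1.64 ± 0.17. Folr2, the folate receptor beta gene next to Folr1, gave 55.5, 161 and 40.3 in the gliomas and 65.9 and 70.2 in normal brain, so that the groups overlapped (-0.28 ± 0.54, adjusted p = 0.686).

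Prlr encodes the prolactin receptor, which binds circulating prolactin at the choroid plexus. The signal was 8.15, 66.9 and 12.5 in the gliomas, well above background in glioma 2 alone, and 1681 and 1416 in normal brain. Glioma 2 was the highest. The log2 change was -6.69 ± 0.86, or 103-fold (adjusted p = 0.00279), where gliomas 1 and 3 were not well above background. It was -7.53, or 184-fold, without glioma 2, -4.26, or 19.1-fold, with normexp and -5.08 with both probes averaged. The other Prlr probe, detected in gliomas 2 and 3, gave 18.6, 38.3 and 27.3 against 232 and 238, a log2 change of -3.47 ± 0.28.

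Genes that act with this receptor went both ways. Of 9 in the prolactin receptor list, 4 were higher and 2 lower, with a median of 0.54. Over all genes tested, 24.0% were higher and 27.5% lower. The transcription factor gene Stat5a rose by 2.85 ± 0.15 (2.19 with normexp), and the feedback inhibitor genes Socs3 and Socs1 by 2.49 ± 0.21 and 1.70 ± 0.16. Cish, another inhibitor induced by STAT5, fell by 2.25 ± 0.18 and the growth hormone receptor gene Ghr fell by 2.10 ± 0.52. The call of Ghr was lost without normal brain array 1 or 2 (adjusted p = 0.0866 and 0.109), which left 1 gene lower.

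Kl encodes klotho, a membrane protein that makes FGF receptors respond to FGF23 and is also shed into the cerebrospinal fluid. Its signal was 65.2, 56.3 and 71.4 in the gliomas and 1993 and 2292 in normal brain. The gliomas lay within 1.51-fold of each other after scaling. Kl fell by 5.41 ± 0.22, or 42.5-fold (adjusted p = 0.000378), and with normexp the change was -4.41, or 21.3-fold.

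Of the 10 partners of klotho, 3 were lower and 3 higher, near the shares over all genes tested (27.5% and 24.0%). Their median of -0.24 turned to 0.11 in the authors' unscaled values. The FGF receptor genes Fgfr2 (-1.89 ± 0.25) and Fgfr3 (-1.52 ± 0.18) fell, and Fgf23 fell by 1.94 ± 0.60 (adjusted p = 0.0451). Adam17, a protease that sheds klotho, rose by 1.08 ± 0.16 and Fgfr1 by 0.64 ± 0.13. Without normal brain array 1 or 2, 0 and 1 were higher: the call of Fgfr1 was lost in both cases (adjusted p = 0.119 and 0.122) and with its probes averaged (0.088), and that of Adam17 in the former (0.0558). Fgf23 was lost in both as well (0.147 and 0.162), without glioma 2 (0.0821), in all 3 other scalings (0.0529, 0.0788 and 0.0523) and with no filter on dim probes (0.0502).

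Water and ion transporters of the epithelium fell with them. Aqp1, the water channel of the ventricular face of the epithelium, gave 38.5, 75.3 and 68.2 in the gliomas and 1219 and 1415 in normal brain. All 5 arrays detected it, and it fell by 4.84 ± 0.30, or 28.7-fold (adjusted p = 0.000518), and with normexp the change was -3.81, or 14.1-fold. Slc4a5, a sodium bicarbonate cotransporter, gave 49.7, 42.6 and 30.9 against 427 and 479.6. This was the smallest fall of the 10, at a log2 change of -3.84 ± 0.23, or 14.3-fold (adjusted p = 0.000477), and with normexp the change was -2.65, or 6.27-fold. A dimmer Slc4a5 probe, undetected in the gliomas, gave a fold of at least 9.65 without that correction. Clic6, a member of the chloride intracellular channel family found in secretory epithelia, gave 112, 179.7 and 95.7 against 4009 and 4186. It fell by 5.39 ± 0.23, or 41.9-fold (adjusted p = 0.000378), with the groups far apart.

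Relatives of these transporters moved in both directions. Among 8 aquaporin genes tested, 2 were lower and 2 higher, near the shares over all genes tested (27.5% and 24.0%). Aqp9 and Aqp12 were not detected. Aqp5, an epithelial water channel, gave 805, 505 and 835 in the gliomas and 15.5 and 18 in normal brain, where it was not detected, and was at least 32.1-fold higher; the rise was 7.44-fold with normexp and 14.7-fold with its probes averaged, both under the bound. Aqp3 was at least 2.27-fold higher but did not pass with normexp (adjusted p = 0.175). Aqp6 was at least 6.26-fold lower, or 2.56-fold with normexp, and Aqp11 fell by 1.44 ± 0.19, whereas Aqp4, the astrocyte channel, changed by -0.32 ± 0.41 (adjusted p = 0.548). The aquaporin median of -0.16 turned to 0.18 in the unscaled values and to 0.10 without glioma 3.

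In the CLIC family Clic1 and Clic5 rose by 3.45 ± 0.27 and 3.34 ± 0.32 and Clic3 fell by 2.19 ± 0.27 (-1.43 with normexp). Of 9 other SLC4 genes 5 were lower (27.5% over all genes tested). The falls were led by the bicarbonate transporter genes Slc4a10 (-3.22 ± 0.20, and -2.35 with normexp) and Slc4a8 (-2.53 ± 0.29) and the anion exchanger gene Slc4a3 (-1.66 ± 0.13). None was higher in limma, though 1 was at an unadjusted p under 0.05, without glioma 2, in the unscaled values and with a variance trend.

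Fluid secretion also needs carbonic anhydrases and ion transporters. Of 13 such genes 6 were lower and none higher by limma's adjusted p (27.5% and 24.0% over all genes tested). In the other direction, 1 was higher at an unadjusted p under 0.05, 1 without glioma 2 and 2 in the unscaled values. The carbonic anhydrase genes Car12 (-4.26 ± 0.38) and Car2 (-3.14 ± 0.55) fell, and Slc4a10 is in this list too. Slc12a2, the sodium-potassium-chloride cotransporter gene, changed by -0.08 ± 0.15 (adjusted p = 0.678).

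Cldn2 encodes claudin-2, which makes tight junctions permeable to cations and water. The signal was 3.75, 3.91 and 3.33 in the gliomas, not well above background in any, and 314 and 379 in normal brain. The bound of the fold was 31.1, with a fitted log2 change of -6.91 ± 0.15 (adjusted p = 0.000345). With normexp the change was -3.05, or 8.28-fold, which lies under the bound. Its second probe was near background throughout, at 20 and 16.9 in normal brain, and detected on normal brain array 1 only.

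Of 15 other claudin and tight junction genes tested, 5 were lower and 1 higher, against 27.5% and 24.0% of all genes tested. Cldn1 was not detected. Cldn10 fell by 2.42 ± 0.36, Cldn19 was at least 3.70-fold lower (with normexp 1.83-fold, under the bound) and the myelin claudin gene Cldn11 fell by 1.49 ± 0.36, while Cldn7 rose by 1.68 ± 0.26 (1.01 with normexp). The scaffold gene Tjp1 changed by 0.41 ± 0.37 (adjusted p = 0.39). In the authors' unscaled values 2 were lower and 5 higher, 2 were lower without either normal brain array and 3 without glioma 1. The call of Cldn11 was lost in each of these (adjusted p = 0.0763 unscaled, 0.0947 and 0.108 without normal brain arrays 1 and 2, 0.0612 without glioma 1).

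Calml4 and Prr32 have less defined roles in the tissue. Calml4 is a calmodulin-like protein of the microvillar brush border. Its signal was 22.5, 68.1 and 53.8 in the gliomas and 1458 and 1355 in normal brain, and it fell by 5.36 ± 0.47, or 41.1-fold (adjusted p = 0.000925), and with normexp the change was -4.17, or 17.9-fold. Glioma 1 was the lowest, with a 2.63-fold range among the gliomas. Of 6 microvillar partners tested 2 were lower, near the share over all genes tested (27.5%). Vil1, which bundles actin, fell by 1.38 ± 0.22 and the protocadherin gene Cdhr2 fell by 0.72 ± 0.15. The others did not pass, among them Myo7b, whose change of 2.57 (0.46 with normexp) was the largest of the list. Anks4b was not detected. None was higher by limma's adjusted p, but 1 was at an unadjusted p under 0.05, in the unscaled values, without glioma 3 and with a variance trend. The call of Cdhr2 was lost without normal brain array 1 or 2 (adjusted p = 0.121 and 0.103) and in the unscaled values (0.179).

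Prr32 encodes a proline-rich protein. Its signal was 3.90, 3.50 and 3.42 in the gliomas, with none well above background, and 349 and 364 in normal brain. The bound of the fold was 32.1, with a fitted log2 change of -6.97 ± 0.16 (adjusted p = 0.000345). With normexp the change was -3.14, or 8.81-fold, again under the bound.

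**Figure D2:**
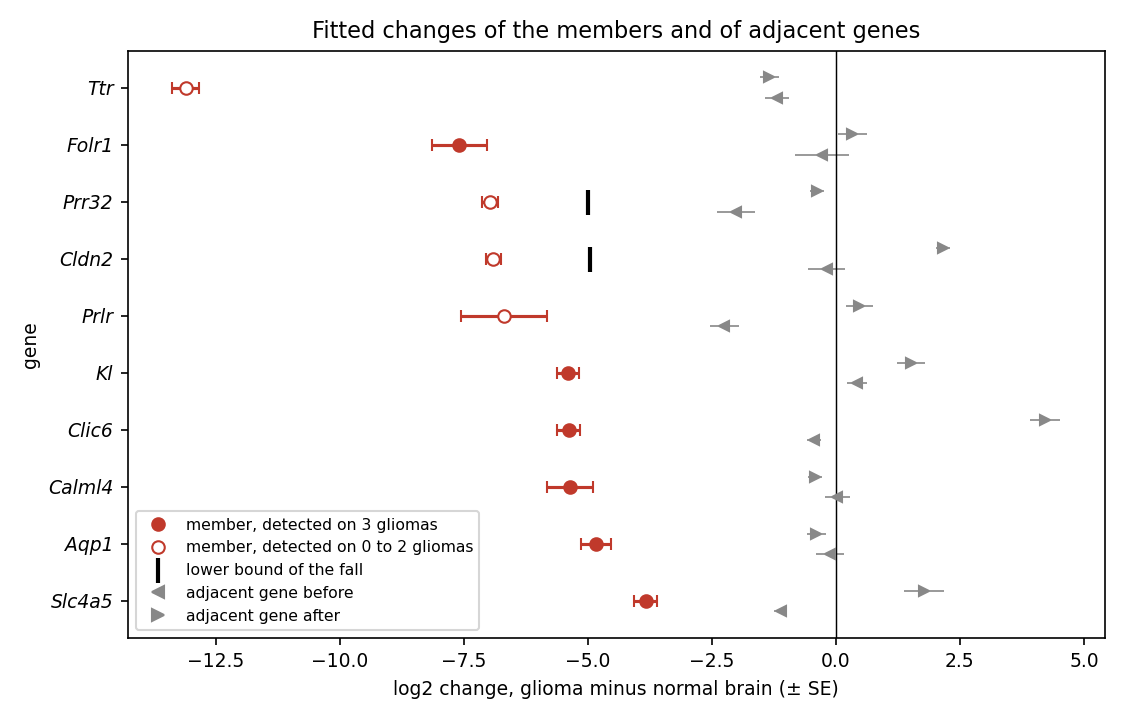
Fitted log2 change of each choroid plexus gene (with SE), glioma minus normal brain, filled where all 3 gliomas detected it, with black bars at the lower bound of the fall, and of the nearest tested protein-coding gene on each side (grey). The choroid plexus genes lie between -3.84 and -13.11 and the grey points between -2.25 and 4.22.

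The 10 genes lie on 8 chromosomes, and their neighbours were read from the RefSeq gene order. Of the 20 nearest tested protein-coding genes, 6 were lower, 4 higher and 10 did not pass, with a median of -0.23. Without normal brain array 1 these were 3 lower and 2 higher, without array 2 4 and 2. In the main analysis 27.5% of all genes tested were lower and 24.0% higher. With 1 of the normal brain arrays left out, fewer of all genes tested were called in both directions. The largest change was in Runx1, a transcription factor gene beside Clic6, which rose by 4.22 ± 0.30 (2.42 with normexp and 3.43 with its probes averaged) and was detected in all 3 gliomas and 1 normal brain array. Spef2, a cilium gene beside Prlr, fell by 2.25 ± 0.29. Cln6 beside Calml4 changed by 0.03 ± 0.25 (adjusted p = 0.926).

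The residual signal in glioma was not highest on the same array for every gene. Among the 6 genes that all 3 gliomas detected, glioma 2 was highest after scaling for 3 (Folr1, Clic6 and Calml4), glioma 3 for 2 (Kl and Aqp1) and glioma 1 for 1 (Slc4a5). The range among gliomas ran from 0.60 for Kl to 1.84 for Folr1 on the log2 scale, where the median over all genes tested was 0.50. That median covers genes of every level and was not matched in brightness to these 6, which were dim in the gliomas. Array 2 minus array 1 of normal brain ran from -0.27 to 0.25 over the 10 genes.

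Markers of the choroid plexus outside the 10 were also low. Of 28 listed, 27 were measured, all but Slc2a12: 24 were lower, 1 was higher and 2 did not pass, with a median of -2.85, and 19 were lower without either normal brain array. Kcne2, a potassium channel subunit gene of the epithelium, gave 4.04, 8.32 and 34.6 in the gliomas, detected in 1 of them, and 1498 and 1985 in normal brain, a log2 change of -7.70 ± 0.95 (adjusted p = 0.00246). It was -5.0 with normexp, -7.04 without glioma 1 and -8.61 without glioma 3. Otx2, the homeobox gene that maintains choroid plexus identity, gave 101, 189.6 and 20.1 against 1811 and 1853, a log2 change of -5.0 ± 0.90 (adjusted p = 0.00828). This was -5.62 without glioma 2, -4.12 without glioma 3 and -3.82 with normexp. Glioma 3 was thus highest for Kcne2 and lowest for Otx2. The collagen gene Col8a2, detected in 1 of 3 gliomas, fell by 5.10 ± 0.35, with changes of -3.13 with normexp and -2.91 with its probes averaged. Igfbp2, a growth factor binding protein gene, rose by 2.46 ± 0.29. Trpm3 and Steap1 changed by -0.35 ± 0.16 and 0.14 ± 0.41 (adjusted p = 0.121 and 0.791), but with its probes averaged Trpm3 passed, at -1.49.

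**Figure D3:**
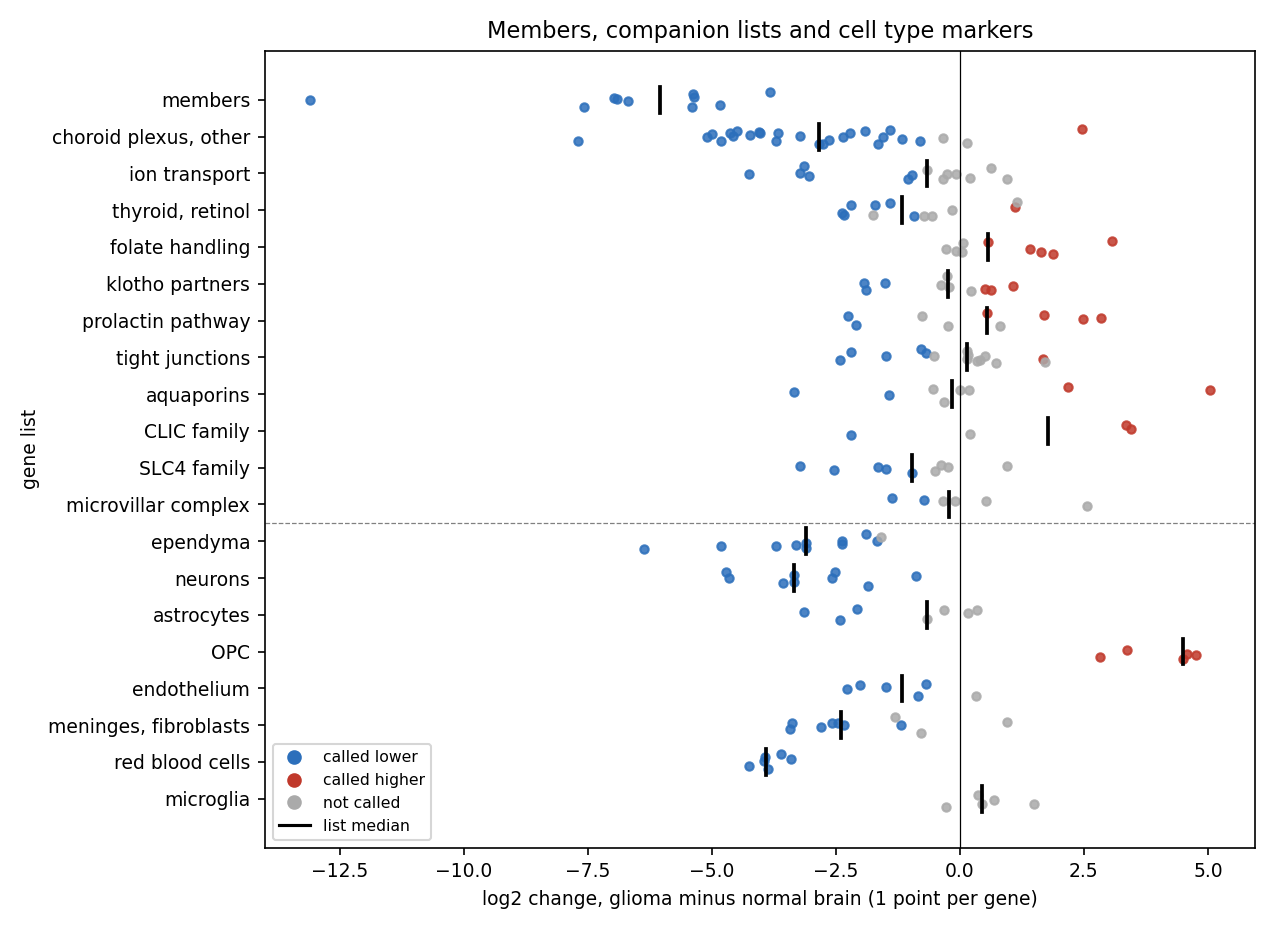
Log2 change, glioma minus normal brain, of each tested gene (points) in the choroid plexus set, the companion lists and, below the dashed line, the cell type marker lists (OPC, oligodendrocyte progenitors), coloured by call, with black bars at the medians. The choroid plexus set has a median of -6.05 and the oligodendrocyte progenitor list one of 4.5.

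Markers of neighbouring tissues moved with these genes. Of 11 markers tested of the ependyma, the ciliated lining of the ventricles, 10 were lower, with a median of -3.10 and a summed level (processed signal over the array's 75th percentile) of 1.67 to 5.71 in the gliomas and 17.7 to 24.1 in normal brain; Dnah9 was not detected. Ccdc153 (-4.82 ± 0.78) and Spag6l (-3.71 ± 0.38) fell (with normexp -3.91 and -2.63; Ccdc153 was at -5.57 without glioma 2), and 6 and 4 markers were lower without normal brain array 1 and 2. Of 10 markers of meninges and fibroblasts 7 were lower (4 without either normal brain array), with summed levels of 2.63 to 4.65 and 13.9 to 14, among them the transporter gene Slc6a13 (-3.44 ± 0.30) and the proteoglycan gene Lum (-3.38 ± 0.17, and -2.13 with normexp). All 6 red blood cell genes matched were lower, with a median of -3.90 and summed levels of 22 to 34.8 and 302 to 349.8. Their part in the choroid plexus result was not tested.

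Markers of cells within brain tissue gave a wider spread, where 27.5% of all genes tested were lower and 24.0% higher. All 9 neuron markers were lower (median -3.34), with summed levels of 54.6 to 82 in the gliomas and 465 to 471 in normal brain. Of 6 endothelial markers 5 were lower (median -1.16, summed levels 12.3 to 16.5 and 23.5 to 26.4), or 3 without glioma 2, without either normal brain array and in the unscaled values. Of 7 astrocyte markers 3 were lower (median -0.65, summed levels 40.9 to 57.6 and 65.3 to 67.3), or 1 without either normal brain array. None of 5 microglia markers passed in limma, 1 was higher at an unadjusted p under 0.05, and the median was 0.45 (summed levels 41 to 119 and 45.8 to 50). This depended on the setting: 1 marker was higher in 9 of the 14 alternatives, among them every other scaling, normexp and leaving out glioma 2 or 3, and 2 under the replicate block. Their part in the choroid plexus result was not tested either.

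The genes outside the set with the most similar profile were sought among 14670 genes detected on both normal brain arrays. Likeness was the root mean square difference, over the 5 arrays, between a gene's centred log2 values and the median of the 10 centred profiles. The 5 nearest were Ntf3 (neurotrophin-3), Dsp (a desmosome gene), Pcsk1 (a prohormone convertase), Trh (thyrotropin-releasing hormone) and Tmprss11a (a protease). Their values ran from 0.22 to 0.46. Among the 10 themselves the values ran from 0.32 for Clic6 to 3.51 for Ttr. Ntf3 gave 7.81, 12.2 and 9.30 in the gliomas and 404 and 444 in normal brain, and, like Dsp and Tmprss11a, was not well above background in any glioma, so that its values there have no order. Trh, detected on all 5 arrays, gave 108, 82 and 77.7 against 4064 and 4438.

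**Figure D4:**
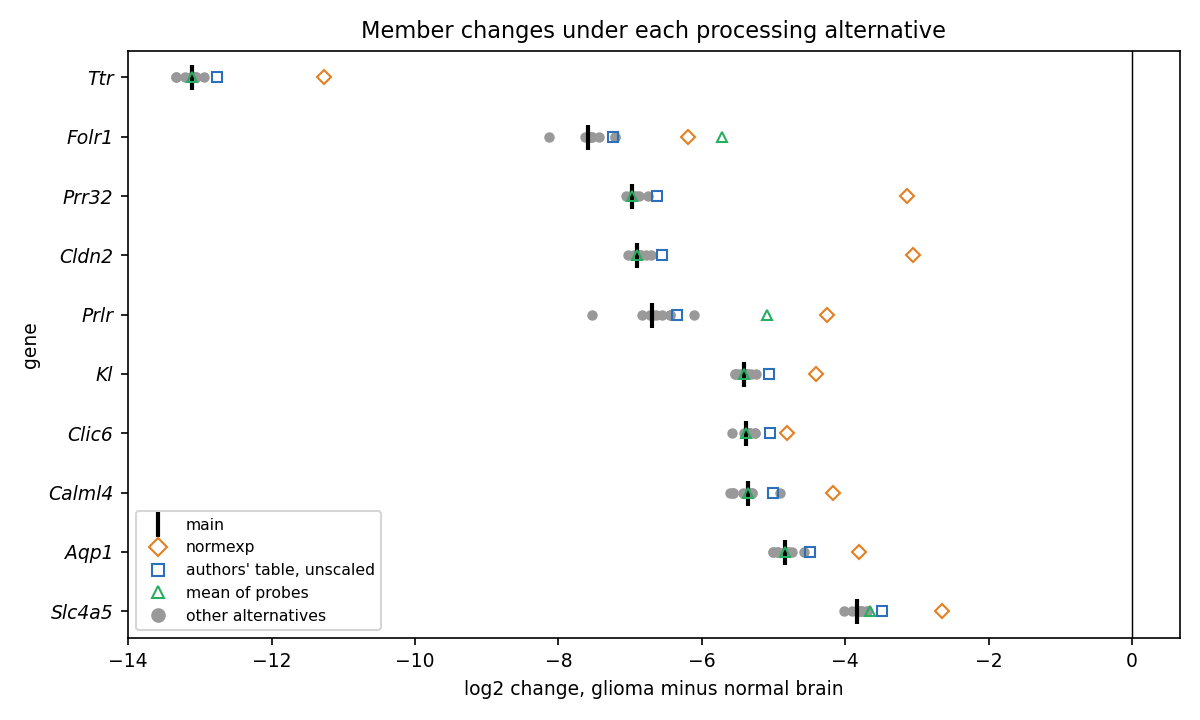
Log2 change of each choroid plexus gene, glioma minus normal brain, in the main analysis (black bar) and under each alternative (other symbols). Every symbol lies below 0, and normexp moves Prr32 and Cldn2 most, to -3.14 and -3.05.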

How the data were processed

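Each array's scanner file gives spot intensity values with background subtracted, as deposited; the submitters' processing notes name Agilent Feature Extraction 10.7.3.1, and no scaling between arrays is stated. The authors' deposited value table holds log2 values that differ from the log2 processed signals only by rounding (all 5 arrays compared). Control spots and 23 probes with outlier flags were left out, spots of a probe were averaged, and the array's 75th percentile was subtracted from log2 processed signal. RefSeq accessions named 28019 of 55658 probes. Each gene is represented by its brightest probe, tested if well above background on at least 2 arrays. The tests were limma 3.58.1 fits (R 4.3.3, lmFit and eBayes, two-sided), adjusted over 16891 genes. On simulated data they recovered 10.3% of 2-fold and 56% of 4-fold changes, with 3.87% false calls. A gene that did not pass is therefore not shown to be unchanged. Pandas 2.3.3 and matplotlib 3.10.9 were also used. Normexp (offset 50) took the median spot signal, since the files used here have no mean signal column. Over 289 probes printed at least 5 times, log2 values of the normal brain arrays differed by an SD of 0.17 (0.03 from spot noise alone) and those of glioma pairs by 0.63 to 0.73; both normal brain arrays are counted as the labels give them, which does not show that they are separate animals. The rule named all 10 genes and, from each list, up to 3 called genes with the largest change in its main direction and up to 2 in the other; other list and neighbouring genes given as values were picked after their values were seen. Members and lists were chosen with earlier results of these data known. Alternatives were other scalings, normexp, filters and probe rules, single arrays left out, a replicate block and a variance trend. Testing each probe alone was chosen after seeing the data. A few list genes are left out of the text and not reported here.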

Additional observations from a re-analysis of the deposited data

How the results depend on the processing

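All 10 choroid plexus genes fell and passed the test under each of the 14 alternatives that measured them; requiring detection on all 5 arrays left 6 genes, all lower. Their largest adjusted p under any alternative was 0.0228 (limma, Prlr without normal brain array 1). With single arrays left out, 10 of the 10 were lower each time, while the genes called over the whole array ran from 4606 to 9375 against 8697 in the main analysis, with 4606 without normal brain array 1 and 4617 without array 2. A replicate block, which pairs samples by number, gave 8315 calls and all 10 choroid plexus genes lower. The difference between replicates 1 and 2 correlated at 0.04 between the groups across genes. This rests on a single pair of arrays per group, so it cannot show whether samples of the same number share anything else. The median change of the 10 genes was -5.70 in the authors' unscaled values and -4.21 with normexp. Of 190 counts of lower genes in the lists, taken under some of the alternatives and not under normexp, 167 stayed within 1.5 times the main count. They include the oligodendrocyte progenitor and microglia lists, which had 0 lower genes throughout. Dim probes limit the size of a fall, since 2 of the 10 genes were detected in no glioma and 2 in some.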
